A study of Mus musculus with 9 samples.

Results

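*Mdfic*, *Tes*, *Cav2*, *Cav1* and *Met* are 5 of the 14108 genes counted in 9 mouse mammary tumours. They lie in this order on chromosome 6 of mm10 (GRCm38), from 15720566 to 17573980, over 1.85 Mb. They were chosen by their position and by their counts in the tumour labelled HR1_2 against the other tumours, so what HR1_2 shows for them is a description and was not tested. The data follow that choice for *Tes*, *Cav2*, *Cav1* and *Met* and go against it for *Mdfic*, whose level in HR1_2 was 0.949 times the mean of the other HR1 tumours. Reads were counted in 3 tumours each of 3 models, HR1, LM1 and LM9. All 3 models descend from a mammary tumour line of a transgenic mouse that carries *PIK3CA* with the H1047R change under the CAG promoter, which is not restricted to the mammary gland. HR1 is the parental, non-metastatic line, and LM1 and LM9 are lines grown from lung metastases of HR1 cells in which a *piggyBac* transposon had been mobilized with doxycycline. In each case 250000 cells were placed in the mammary fat pad of female NOD/SCID mice aged 4 to 8 weeks, tumours were taken before 1500 mm3, and GFP-positive cells were sorted. NOD/SCID hosts lack T and B cells and keep macrophages and neutrophils. The study compared the *Nfib* high-expression models LM1 and LM9 with low-expression models, which were HR1 and the *Nfib* knockouts of LM1 and LM9. Of these low-expression models only HR1 is among the 9 tumours.

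MET is the receptor tyrosine kinase for hepatocyte growth factor. Ligand binding brings receptors together, and their phosphorylated tails recruit adaptors such as GAB1 and GRB2 that feed the ERK and PI3K pathways, which drive growth, scattering and invasion of epithelial and tumour cells. Caveolin-1 forms the coat of caveolae, the small flask-shaped pits of the plasma membrane, and caveolin-2 joins it in mixed oligomers. Testin, the product of *Tes*, is a LIM-domain scaffold of focal adhesions and actin fibres. MDFIC binds transcription factors of several families and associates with PIEZO channels.

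The sequences before the starts of *Tes*, *Cav2* and *Cav1* are shown because these neighbours moved together and because the study is about *Nfib*, whose product binds TTGGC. Each is the 250 bases upstream of the RefSeq start on GRCm38.p6, plus strand, 5′ to 3′, at chr6:17064899-17065148, chr6:17280935-17281184 and chr6:17306085-17306334. Capitals mark every match on either strand to TTGGC (the half-site of NFI proteins), TGANTCA (AP-1, the FOS and JUN dimer) or ACGTG (the core of the hypoxia response element).
Tes: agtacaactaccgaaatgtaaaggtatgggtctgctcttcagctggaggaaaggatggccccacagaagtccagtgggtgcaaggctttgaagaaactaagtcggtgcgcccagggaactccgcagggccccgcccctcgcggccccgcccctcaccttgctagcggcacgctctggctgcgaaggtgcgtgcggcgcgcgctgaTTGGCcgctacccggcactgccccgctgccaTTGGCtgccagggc
Cav2: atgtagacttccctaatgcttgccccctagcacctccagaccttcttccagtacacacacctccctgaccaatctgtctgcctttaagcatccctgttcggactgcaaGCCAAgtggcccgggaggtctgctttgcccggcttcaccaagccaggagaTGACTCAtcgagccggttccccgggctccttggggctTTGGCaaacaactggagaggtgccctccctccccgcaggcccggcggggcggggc
Cav1: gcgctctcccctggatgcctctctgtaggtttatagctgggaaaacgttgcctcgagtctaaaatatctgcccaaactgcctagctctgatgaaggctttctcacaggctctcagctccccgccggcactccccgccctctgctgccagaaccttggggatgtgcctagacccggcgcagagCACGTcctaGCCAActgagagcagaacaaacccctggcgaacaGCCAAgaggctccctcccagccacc
The same 250-base window of *Met*, chr6:17463707-17463956, lies within the annotated span of the gene, downstream of the start of a longer transcript, and is not printed. TTGGC was found 2 times in the *Tes*, *Cav2* and *Cav1* windows and 1 time in that of *Met*. Of 32851 promoter windows of the same length, 41.5% held it. The full palindromic NFI site, TTGGC followed after 5 bases by GCCAA, was in none of the 4 windows and in 0.0365% of all. TGANTCA was found 1 time each before *Cav2* and *Met*, against 6.75% of all windows. ACGTG was found 1 time before *Cav1* and, as an overlapping pair on opposite strands, before *Met*, against 16.6% of all windows. The 4 windows held 64.8% (*Tes*), 62.0% (*Cav2*), 59.6% (*Cav1*) and 74.0% (*Met*) G and C, where the median promoter had 52.4%. No binding was measured in these samples. On the other strand, the *Tes* window overlaps annotated exons of the non-coding genes *Gm15473* and *Gm4876*, which were not analysed here.

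Total counts lay between 32393958 and 46681945 per tumour, so that 3 counts, taken as the smallest amount told from 0, were at most 0.0997 CPM. Levels are given as CPM, counts scaled to library size after TMM, a correction for library composition. HR1_1 stood apart from the other HR1 tumours. Log2 CPM over genes correlated at 0.874 to 0.887 between HR1_1 and these, at 0.958 between HR1_2 and HR1_3 and at 0.984 or more within LM1 and within LM9. HR1_1 also went against its model's class, with 1343 CPM of *Nfib* against 23.9 in HR1_2 and 18.3 in HR1_3 and 420.6 to 791 in the LM tumours. Values of the 5 genes that rest on HR1 are therefore also given without single HR1 tumours. Of the mammary epithelial markers, *Epcam* was at most 4.49 CPM and *Cdh1* at most 1.20 CPM in any tumour, while *Col1a1* was at 6359 to 12670 CPM. The 6 epithelial markers tested summed to 7.55, 35.2 and 121 CPM in HR1_1, HR1_2 and HR1_3, 158 to 181 CPM in LM1 and 14.4 to 17.97 CPM in LM9. In the LM tumours most of this sum came from the basal keratin gene *Krt14*. *Krt8*, *Cldn3*, *Cldn4* and *Cldn7* were not analysed here.

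*Met* was at 5.98, 229.9 and 79.8 CPM in HR1_1, HR1_2 and HR1_3. It was at 23.0, 27.5 and 24.1 CPM in the LM1 tumours and at 84.7, 88.8 and 93.1 CPM in the LM9 tumours. HR1_2 was the highest of the 9 and HR1_1 the lowest, so the HR1 tumours spanned both LM models, while LM1 and LM9 did not overlap. Behind these levels stood 180 *Met* counts in HR1_1, 10210 in HR1_2 and 950 or more in each other tumour.

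*Cav1*, the main coat protein of caveolae, was at 309, 2935 and 1665 CPM in HR1_1, HR1_2 and HR1_3. The LM1 tumours had 445, 473 and 578 CPM and the LM9 tumours 658, 726 and 741 CPM. HR1_2 and HR1_3 were above all 6 LM tumours and HR1_1 was below them all. *Cav2*, its partner, was at 47.6, 466 and 207 CPM in the same HR1 tumours, at 80.9, 88.7 and 93.1 CPM in LM1 and at 155, 169 and 171 CPM in LM9. The tumours had the same order for *Cav2* as for *Cav1* (Spearman's rho 1 over 9 tumours).

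*Tes*, the focal adhesion scaffold, was at 70.8, 795 and 179.5 CPM in HR1_1, HR1_2 and HR1_3. It was at 110.3, 112 and 129.8 CPM in LM1 and at 157, 176 and 165 CPM in LM9. HR1_2 was well above the rest, HR1_3 just above the LM9 tumours and HR1_1 below all others. *Mdfic* was at 77.0, 77.2 and 85.8 CPM in the HR1 tumours, at 70.4, 72.6 and 65.2 CPM in LM1 and at 90.9, 80.9 and 79.7 CPM in LM9. Its 9 values lay within a narrow band, with HR1_2 in the middle.

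**Figure D1:**
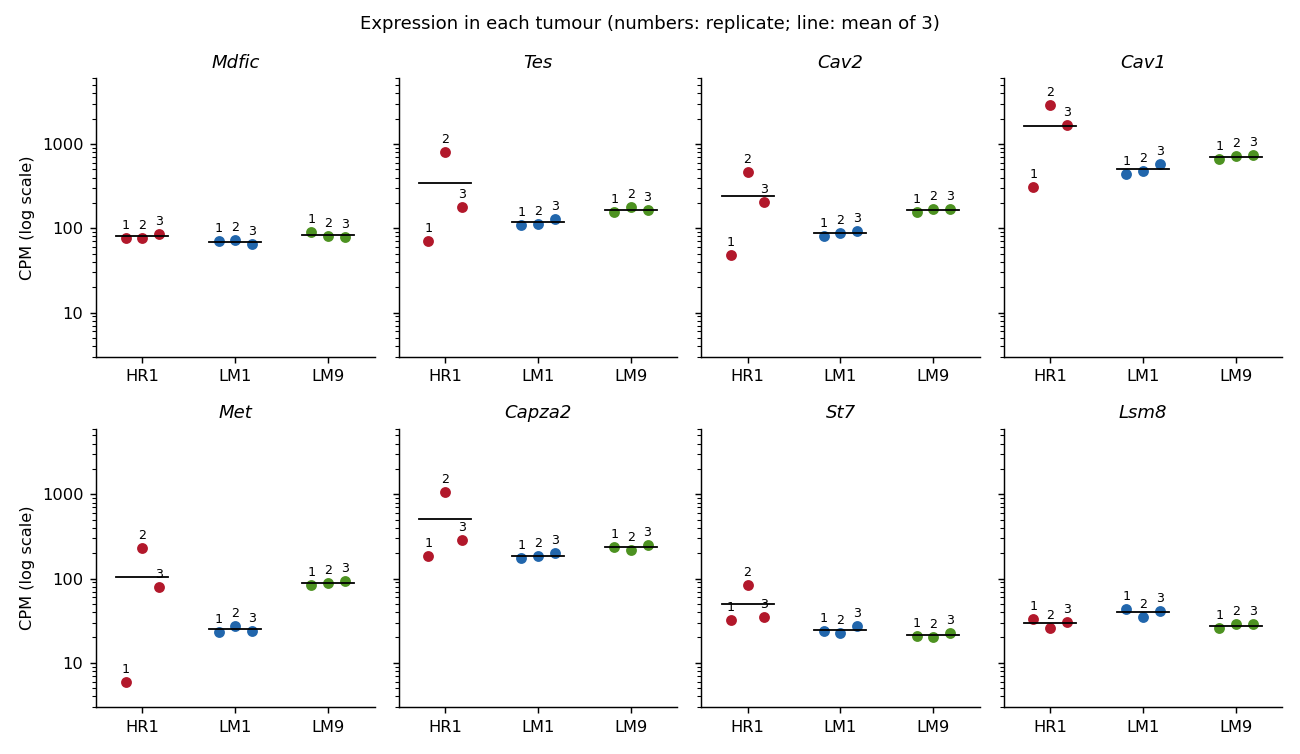
CPM (log axis) of *Mdfic*, *Tes*, *Cav2*, *Cav1*, *Met* and the neighbours *Capza2*, *St7* and *Lsm8* in each tumour of HR1, LM1 and LM9, with replicate numbers beside the points and a line at the mean of 3. HR1_2 is the highest point for *Tes* (795 CPM), *Cav2* (466 CPM), *Cav1* (2935 CPM) and *Met* (229.9 CPM), and not for *Mdfic* (77.2 CPM) or *Lsm8* (25.8 CPM).

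Per kilobase of exon, *Cav1* had the highest level of the 5 genes in HR1_2, 852 CPM per kb, followed by *Cav2* (139.9), *Tes* (116), *Met* (29.9) and *Mdfic* (10.4 CPM per kb). In the LM1 tumours the order was the same down to *Tes*, with 145 CPM per kb for *Cav1*, 26.3 for *Cav2* and 17.2 for *Tes*. Below these, *Mdfic* at 9.34 CPM per kb was above *Met* at 3.24 CPM per kb. In LM9 *Met* (11.6 CPM per kb) and *Mdfic* (11.3 CPM per kb) were level. Together the 5 genes took 0.451% of all counts in HR1_2, 0.0474% in HR1_1, 0.224% in HR1_3 and 0.0756% to 0.124% in the LM tumours.

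HR1_2 exceeded the mean of HR1_1 and HR1_3 by 6.35-fold for *Tes*, 5.36-fold for *Met*, 3.67-fold for *Cav2* and 2.97-fold for *Cav1*. These values chose the genes, and no test was made of them. Of the 12377 genes whose mean reached 1 CPM, 6.21% were at least 2-fold higher in HR1_2 than that mean. Since HR1_1 stands apart, the ratio to HR1_3 alone was also taken. It was 4.43 for *Tes*, 2.88 for *Met*, 2.26 for *Cav2*, 1.76 for *Cav1* and 0.901 for *Mdfic*, against 8.74% of all genes at 2-fold or more. Against HR1_1 the ratios were 38.4 for *Met*, 11.2 for *Tes*, 9.79 for *Cav2* and 9.51 for *Cav1*. *Tes*, *Cav2* and *Met* were at least 2-fold above each of the other 8 tumours, as were 1.33% of all genes. *Cav1* was 1.76-fold above the next tumour, HR1_3. *Tes*, *Cav2*, *Cav1* and *Met* were highest in HR1_2, as were 13.8% of all genes, and lowest in HR1_1, as were 23.9%.

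The neighbours beyond *Met* showed the same pattern in HR1_2. *Capza2*, which encodes a subunit of the actin-capping protein and begins 63.0 kb after *Met*, was at 187, 1059.9 and 288 CPM in HR1_1, HR1_2 and HR1_3 and between 175 and 252 CPM in the LM tumours. *St7* was at 32.1, 84.0 and 35.2 CPM in the HR1 tumours and between 20.5 and 27.1 CPM in the LM tumours. *Wnt2*, a secreted WNT ligand, was at 3.03, 9.28 and 0.335 CPM in HR1, at 2.27 to 2.82 CPM in LM1 and at 0.248 to 0.755 CPM in LM9. Each was highest in HR1_2, by 3.68-fold, 2.39-fold and 3.07-fold over the next tumour for *Capza2*, *St7* and *Wnt2*. *Lsm8*, the next tested gene and a part of the U6 RNA complex, was lower in HR1_2 (25.8 CPM) than in HR1_1 (33.3 CPM) and HR1_3 (30.4 CPM). *Tfec*, between *Mdfic* and *Tes*, was low in all tumours, with 1.06, 0.720 and 0.335 CPM in HR1_1, HR1_2 and HR1_3 (32, 32 and 13 counts) and at most 0.204 CPM in the LM tumours.

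The 7 adjacent tested genes from *Tes* to *Wnt2* thus spanned 0.968 Mb and were each at least 2-fold above the mean of the other HR1 tumours, with a median of 4.46-fold. Of the other 15 tested genes from 5 Mb before *Mdfic* to 5 Mb after *Met*, *Mdfic* among them, 13 were between 0.5-fold and 2-fold and 2 were at or below 0.5-fold, with a median of 0.949-fold. Against HR1_3 alone the medians were 2.88-fold inside and 0.922-fold outside, where the low-count genes *Tfec* and *Tspan12* also passed 2-fold (2.15 and 2.56). The last values inside the raised stretch were 6.35-fold (*Tes*) and 5.52-fold (*Wnt2*), and the nearest outside were 1.03-fold (*Tfec*) and 0.810-fold (*Lsm8*). From the end of *Tfec* to the start of *Tes* lie 0.167 Mb, and from the end of *Mdfic* 1.26 Mb. From the end of *Wnt2* to the start of *Lsm8* lie 0.816 Mb, in which *Asz1*, *Cftr* and *Cttnbp2* were not analysed here.

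**Figure D2:**
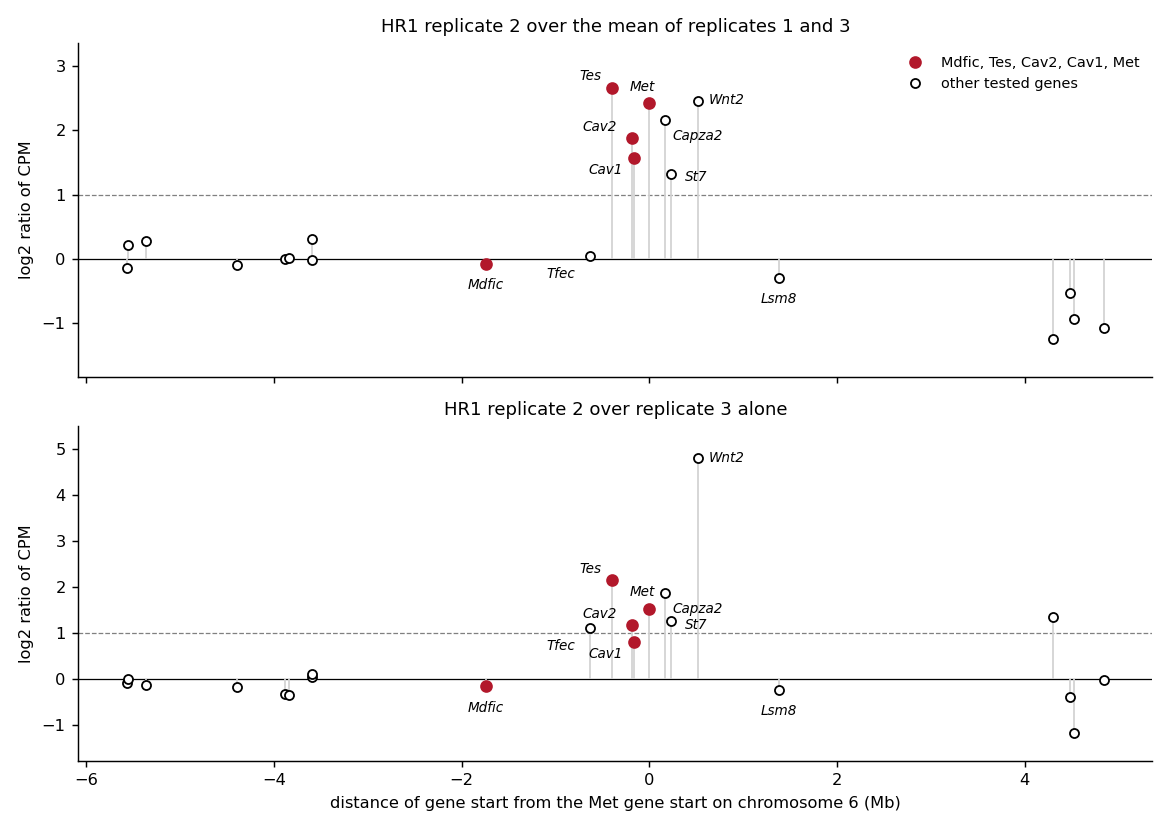
Log2 ratio of CPM in HR1_2 to the mean of HR1_1 and HR1_3 (top) and to HR1_3 alone (bottom) for the 22 tested genes from 5 Mb before *Mdfic* to 5 Mb after *Met*, by distance of the gene start from that of *Met* in Mb; filled points are the 5 genes, open points the others, and the dashed line is 2-fold. The 7 genes from *Tes* to *Wnt2* are above the dashed line in the top panel, *Cav1* falls below it in the bottom panel (1.76-fold), and *Mdfic* is near 0 in both.

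When all genes whose mean reached 1 CPM were put in chromosome order, *Tes* to *Wnt2* formed the longest run of neighbours in which HR1_2 was at least 1.5-fold above each other tumour, with 7 genes. HR1_2 had 4 such runs of 3 or more genes, the next a run of 6 genes on chromosome 17 from *Klc4* to *Mea1*. HR1_1 had 24 runs of 3 or more, the longest with 8 genes from *Nfib* to *Bnc2* on chromosome 4, and HR1_3 had 3, the longest with 6 genes. The LM tumours had none, and tumours as close to the others of their model as these could hardly form one. The run from *Tes* to *Wnt2* holds genes chosen by these values and is a description.

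Within their own model, no LM tumour stood apart for these genes. The ratio of a tumour to the mean of the other 2 of its model lay between 0.847 and 1.26 for the 5 genes in the LM1 tumours and between 0.897 and 1.13 in the LM9 tumours. In HR1_1 it was 0.145 for *Tes*, 0.142 for *Cav2*, 0.134 for *Cav1*, 0.0387 for *Met* and 0.945 for *Mdfic*. Hence the HR1 means carried s.d. as large as or near the means themselves, 105 ± 114 CPM for *Met*, 1636 ± 1313 CPM for *Cav1*, 240.3 ± 211 CPM for *Cav2* and 348 ± 391 CPM for *Tes* (mean ± s.d., n = 3), but 80.0 ± 4.98 CPM for *Mdfic* (n = 3).

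Genes listed as markers of leukocytes, endothelial cells, fibroblasts and adipocytes also differed between the HR1 tumours. Of 10 leukocyte markers, 9 were highest in HR1_2, all but *Cd68*, which was highest in LM9_3. Their summed level was 939 CPM in HR1_2, 566 in HR1_1, 213 in HR1_3 and 182 to 252 CPM in the LM tumours, and *Ptprc*, which encodes the pan-leukocyte protein CD45, was at 11.3 CPM in HR1_2. In LM versus HR1, 7 of the 10 were called lower and none higher, and 5 were lower without HR1_2. Of all genes 23.6% were called lower in that comparison. The 8 endothelial markers tested, whose cells are rich in caveolae, summed to 31.8 CPM in HR1_2, 11.3 in HR1_1 and 6.66 in HR1_3. In the LM tumours they summed to 164 to 291 CPM, almost all from *Cdh5* and *Kdr*, which were higher in LM than in HR1 (edgeR adjusted p under 0.05), while the other 6 were lower. Without HR1_2, 1 of the 8 was called lower and 2 were called higher. Fibroblast markers summed to 35254, 23424 and 23890 CPM in HR1_1, HR1_2 and HR1_3 and to 8976 to 13828 CPM in the LM tumours. Of these 10 markers, 9 were called lower in LM than in HR1 and none higher, and 7 were lower without HR1_1. Of the adipocyte markers only *Fabp4* and *Pparg* were tested, with a sum of 4.46 CPM in HR1_2 and between 1.46 and 9.31 CPM elsewhere. Whether host cells or the sorted tumour cells held these transcripts was not tested. The part of host cells in the HR1_2 values was not tested either, and in bulk samples fewer cells of a type and less RNA per cell cannot be told apart.

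Over the 9 tumours, log2 CPM of *Tes*, *Cav2*, *Cav1* and *Met* were correlated pairwise, from 0.844 (*Cav1* with *Met*) to 0.964 (*Cav2* with *Met*). The same pairs had r of 0.783 to 0.981 over the 8 tumours without HR1_2, with HR1_1 low, LM1 in between and LM9 and HR1_3 higher. With *Mdfic* the r values were 0.202 to 0.476, and 0.468 to 0.599 without HR1_2. *Capza2* followed *Tes* with r of 0.956, or 0.770 without HR1_2. *St7* did so with 0.750, which was -0.32 without HR1_2. The 9 tumours are 3 models of 3, so these values describe the models as much as single tumours, and they carry no test. Among 10527 other genes whose mean reached 5 CPM, those most like their mean log2 CPM were *Tmem199* (r = 0.977), *Pfkm* (0.974), *Tmem63a* (0.972), *Acsl3* (0.970) and *Trim46* (0.965). All 5 lie on other chromosomes, and their r without HR1_2 was 0.931 to 0.985. *Pfkm*, a phosphofructokinase gene, for example was at 91.3, 263 and 221 CPM in the HR1 tumours, 119 to 134 CPM in LM1 and 160.1 to 175 CPM in LM9. *Capza2* was the 184th gene in this order (r = 0.856) and *St7* the 1393rd.

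LM9 was compared with LM1 to see how the genes differed between metastasis-derived lines, a comparison of means that do not include HR1_2. *Met* was 88.9 ± 4.19 CPM (mean ± s.d., n = 3) in LM9 and 24.9 ± 2.35 CPM (n = 3) in LM1, a ratio of 3.57. *Cav2* was 165 ± 8.89 CPM against 87.6 ± 6.18 CPM, a ratio of 1.88. *Cav1* (709 ± 44.4 against 499 ± 70.1 CPM) and *Tes* (166 ± 9.58 against 117 ± 10.8 CPM) each had a ratio of 1.42. *Mdfic* (83.8 ± 6.20 against 69.4 ± 3.78 CPM) had a ratio of 1.21. For all 5 genes each LM9 tumour was above each LM1 tumour, as it was for 33.6% of all genes. The closest gap was that of *Mdfic*, where the lowest LM9 tumour was 1.10-fold above the highest LM1 tumour, and the widest that of *Met* with 3.08-fold. Of the 6 epithelial markers, *Krt14*, *Krt18* and *Krt5* were lower in LM9 than in LM1 (edgeR adjusted p = 0.0429, 0.0140 and 0.0430), and their part in the difference was not tested. *Krt14* was at 152 to 175 CPM in the LM1 tumours and 12.2 to 15.4 CPM in the LM9 tumours.

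None of the 5 genes passed the test in the model over all 9 tumours, in which 22.0% of 14086 genes did (11.5% higher in LM9 and 10.6% lower). The log2 fold change of *Met* was 1.84 (SE 0.90, edgeR quasi-likelihood adjusted p = 0.170). *Cav2* had 0.91 (SE 0.61, edgeR adjusted p = 0.307), *Cav1* 0.51 (0.60, 0.574), *Tes* 0.50 (0.69, 0.629) and *Mdfic* 0.27 (0.12, 0.124). This model shares 1 estimate of the spread between the groups, and for *Tes*, *Cav2*, *Cav1* and *Met* that estimate carries the spread between HR1_1, HR1_2 and HR1_3. In simulated data this model called 7.46% of log2 changes of 1 and 62.7% of log2 changes of 2. With only the 6 LM tumours the fold changes were nearly the same and all 5 genes were called, as were 56.3% of 13691 genes (28.3% higher). *Met* then reached 1.82 on the log2 scale (SE 0.11, edgeR adjusted p = 3.1e-07). The edgeR adjusted p of *Cav2* was 2.5e-05, that of *Tes* 0.00195, that of *Cav1* 0.00446 and that of *Mdfic* 0.0474. Leaving out HR1_1 alone also brought *Met* (edgeR adjusted p = 0.0023) and *Cav2* (0.014) past the threshold. Two-sided exact permutation tests of LM9 against LM1 gave p = 0.1 for each gene, the smallest that 3 against 3 tumours allow.

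The neighbours past *Met* moved in both directions between the LM models. In the 6 tumours, *Capza2* had a log2 fold change of 0.32 (edgeR adjusted p = 0.0216), *St7* of -0.22 (0.128) and *Wnt2* of -2.37 (0.000225), and only *Lsm8* was called in the model over all 9 tumours, with -0.53 (edgeR adjusted p = 0.0341).

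**Figure D3:**
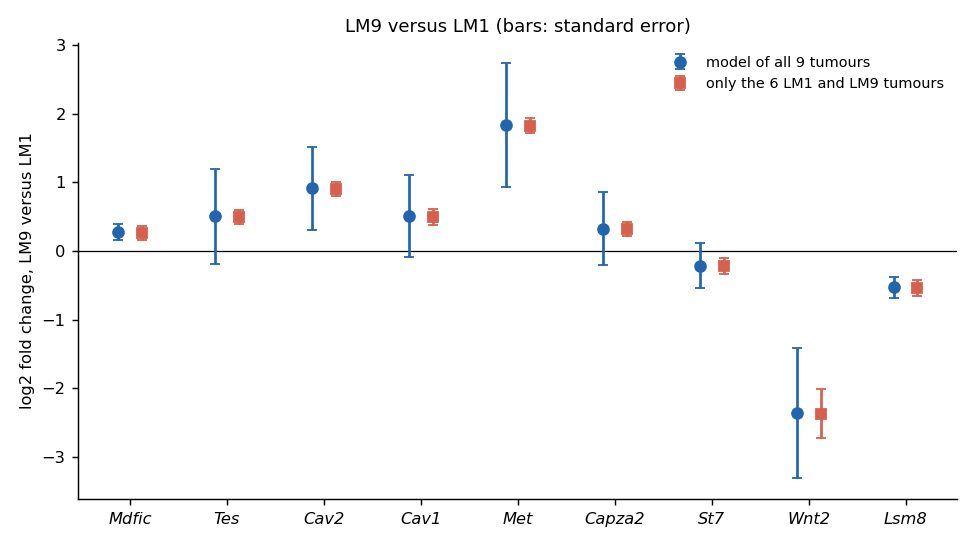
Log2 fold change of LM9 versus LM1 with its standard error, for the 5 genes and the neighbours *Capza2*, *St7*, *Wnt2* and *Lsm8*, from the model over all 9 tumours (circles) and over the 6 LM tumours (squares). The estimates of the 2 fits nearly coincide, and the bars of *Met* shrink from 0.90 to 0.11.

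Against HR1, the mean of LM1 and LM9 gave log2 fold changes of -1.46 for *Cav1*, -1.32 for *Tes*, -1.16 for *Met*, -1.0 for *Cav2* and -0.07 for *Mdfic*. HR1_2 is among the HR1 tumours, so these are descriptions. Without HR1_2 the values were -0.73 for *Cav1*, 0.16 for *Tes*, 0.13 for *Met*, -0.08 for *Cav2* and -0.09 for *Mdfic*. The sign thus changed for *Tes* (SE 0.30) and *Met*, but little difference remained for either. Without HR1_1 they were -1.95, -1.80, -1.71, -1.48 and -0.09 in the same order. In that comparison 43.6% of all genes were called, 19.9% higher and 23.6% lower.

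Genes that work with MET, the caveolins, testin and MDFIC were followed in 9 lists, of which 137 of 142 genes were tested. In LM9 versus LM1, 26 of them (19.0%) passed edgeR's test, 17 higher and 9 lower. In LM1 and LM9 versus HR1, 65 (47.4%) were called, 40 higher and 25 lower. Of all genes 22.0% and 43.6% were called in these comparisons. In the second, 29.2% of the list genes were higher and 18.2% lower, against 19.9% and 23.6% of all genes. Leaving out 1 tumour moved these counts to between 8 and 67 in LM9 versus LM1, the highest without HR1_1 and the lowest without LM1_1, with 13, 11, 11 and 12 without LM1_3, LM9_1, LM9_2 and LM9_3, and to between 52 and 93 in LM versus HR1. All genes called moved in the same fits, from 3102 to between 1150 (without LM1_1) and 6413 (without HR1_1) in LM9 versus LM1. In LM versus HR1 they moved from 6138 to between 4928 (without LM1_1) and 7902 (without HR1_1). The rise without HR1_1 was thus not particular to the lists. Without HR1_1 the lists, in the order below, held 4, 4, 10, 10, 7, 9, 6, 10 and 7 genes called in LM9 versus LM1. Fold changes of list genes in LM versus HR1 are given with all 3 HR1 tumours, and each one named there as higher or lower had the same sign and stayed past the threshold without any 1 of them, except *Itgb4*. In HR1_2, 7 of 131 list genes whose mean reached 1 CPM (5.34%) were at least 2-fold above the mean of HR1_1 and HR1_3 and 12 (9.16%) at least 2-fold below it, against 6.21% and 8.22% of all genes. HR1_1, which stood apart, is part of that mean. Against HR1_3 alone 11 (8.40%) were at least 2-fold higher and 3 (2.29%) at least 2-fold lower, against 8.74% and 4.27% of all genes. HR1_2 was the highest tumour for 18 of the 131 (13.7%), against 13.8% of all genes.

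Among the ligands, proteases and inhibitors around MET, *Hgf*, the ligand, was not analysed here, nor were *Hgfac* and *Hpn*. Of 8 tested genes, 1 was higher in LM9 than in LM1 and none was lower, with a median log2 fold change of -0.25 beside 0.00 for all genes. The called gene was *Mst1*, which encodes the ligand of the related receptor RON, at 5.30 CPM in LM9 and 0.0324 CPM in LM1 (edgeR adjusted p = 0.0122). *Plau*, the urokinase gene, was at 47.1, 248 and 199 CPM in HR1_1, HR1_2 and HR1_3, and at 137 and 91.8 CPM on average in LM1 and LM9. HR1_2 was 2.02-fold above the mean of the other HR1 tumours for *Plau*, but 1.25-fold above HR1_3. *St14*, a protease gene, was at 3.16, 0.135 and 0.129 CPM in HR1_1, HR1_2 and HR1_3, and *Spint2*, which encodes a protease inhibitor, at 0.366, 3.04 and 10.3 CPM. *Mst1* was at 0, 1.69 and 0.283 CPM in the same tumours. In LM versus HR1, 2 were higher, *Spint1* and *Tmprss2*, both at most 1.25 CPM in any model's mean, and 4 genes were called without HR1_1. In LM9 versus LM1, 0 were called without LM1_1 and 2 without HR1_3.

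Of 14 tested partner receptors, 6 were higher and 2 lower in LM than in HR1, and 1 was higher and 2 were lower in LM9 than in LM1. *Egfr* rose from 6.80 CPM in HR1 to 20.8 in LM1 and 19.6 CPM in LM9 (log2 fold change 1.57, SE 0.21, edgeR adjusted p = 0.0006). *Axl*, the GAS6 receptor, rose from 314 CPM in LM1 to 583 CPM in LM9 (0.89, 0.14, 0.00438). *Itgb4*, the integrin chain that pairs with alpha 6 and can act with MET, was at 3.62, 87.1 and 7.39 CPM in HR1_1, HR1_2 and HR1_3, at 1.98 CPM on average in LM1 and at 5.70 CPM in LM9. HR1_2 was 15.8-fold above the mean of the other HR1 tumours for *Itgb4* and 2.20-fold for *Plxnb1*, and 11.8-fold and 3.13-fold above HR1_3. *Erbb2* was 0.401 times that mean and 0.523 times HR1_3, and *Epha2* 0.735 and 0.460 times. *Itgb4* fell in LM versus HR1 (log2 fold change -3.28, SE 0.80, edgeR adjusted p = 0.011), and the call was lost without HR1_2 (-0.71, SE 0.31, 0.105), when 7 receptors were higher and 1 lower. From 3 calls in LM9 versus LM1, the count fell to 1 without LM1_1, LM1_3, LM9_2 or LM9_3.

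Among 18 adaptors and effectors, 3 were higher and none lower in LM9 than in LM1, and 3 were higher and 4 lower in LM than in HR1. *Plcg1*, a phospholipase recruited by MET, rose from 24.0 CPM in LM1 to 56.8 CPM in LM9 (log2 fold change 1.24, edgeR adjusted p = 0.0134). *Shc1* rose from 71.3 to 117 CPM in the same comparison (0.71, 0.0214) and was highest in HR1, at 160.4 CPM. In HR1_2, *Gab1* (57.1, 16.6 and 23.1 CPM in HR1_1, HR1_2 and HR1_3) and *Pik3r1* (112, 19.6 and 35.7 CPM) were at least 2-fold below the mean of the other HR1 tumours, but 0.720 and 0.549 times HR1_3. *Gab2* was 2.11-fold above HR1_3 and 1.30-fold above that mean. In LM9 versus LM1 none was called without LM1_1, LM1_3 or LM9_1 and 1 without LM9_2 or LM9_3. In LM versus HR1, 4 were higher and 9 lower without HR1_1, 2 and 2 without HR1_2, and 1 and 4 without HR1_3 or LM9_2.

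Of 16 genes that turn MET and related receptors off, 4 were higher and 1 lower in LM9 than in LM1, and 6 were higher and 2 lower in LM than in HR1. *Ptprj*, a receptor phosphatase, rose from 17.1 to 37.2 CPM between LM1 and LM9 (log2 fold change 1.12, edgeR adjusted p = 0.00605). *Stam*, of the endosomal sorting machinery, rose from 49.5 to 83.2 CPM (0.75, 0.00965). *Errfi1*, a feedback inhibitor of EGFR, rose from 112 CPM in HR1 to 243 in LM1 and 456 CPM in LM9 (1.57 in LM versus HR1, 0.000939). No gene of the list was 2-fold higher or lower in HR1_2. The 5 calls in LM9 versus LM1 became 1 without LM1_1 or LM9_2, 2 without LM1_3 or LM9_1 and 3 without LM1_2 or LM9_3, and the 8 in LM versus HR1 became 5 without LM9_2. Without HR1_1, 5 were higher and 5 lower in LM than in HR1, and 1 was lower without HR1_2, HR1_3, LM1_1, LM1_2 or LM9_2.

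Among 17 ERK response genes, 9 were higher and 1 lower in LM than in HR1, and the list median on the log2 scale was 1.37, beside -0.05 for all genes. *Egr1* rose from 223 CPM in HR1 to 679.6 in LM1 and 1342 CPM in LM9 (2.10, edgeR adjusted p = 0.00142), and *Ier3* from 107 to 349 and 622 CPM (2.13, 0.000129). *Ccnd1*, cyclin D1, rose from 368 to 993 and 980.2 CPM (1.42, 0.000111). In HR1_2, where *Met* was highest, none of these genes was 2-fold above the mean of the other HR1 tumours. *Spry2* (27.3, 6.55 and 9.01 CPM in HR1_1, HR1_2 and HR1_3) and *Spry4* were at least 2-fold below it, but 0.727 and 0.641 times HR1_3. *Dusp6* and *Etv5* were 2.04-fold and 2.06-fold above HR1_3 and 0.764 and 0.717 times that mean. In LM9 versus LM1, 2 were called, both higher, *Dusp4* (41.3 to 133 CPM, log2 fold change 1.68, edgeR adjusted p = 0.0118) and *Ier3* (0.84, 0.0214). None was called in LM9 versus LM1 without LM1_1 or LM1_3, and 1 without LM9_1 or LM9_2. Without HR1_1, 13 were higher and none lower in LM than in HR1, and none was lower without LM1_1, LM1_2, LM1_3, LM9_2 or LM9_3.

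Of 12 other genes of the caveola coat and neck, 3 were higher in LM9 than in LM1 and 3 in LM than in HR1, and none was lower in either. *Cavin1*, the main cavin, rose from 307 CPM in HR1 to 595 in LM1 and 586 CPM in LM9 (log2 fold change 0.94, edgeR adjusted p = 0.00196), while in HR1_2 it was at 242 CPM against 344 in HR1_1 and 336 CPM in HR1_3. *Cavin4* rose from 28.8 to 46.0 and 78.5 CPM (1.06, 0.00161). *Cav3*, the muscle caveolin, which lies on another part of chromosome 6, was at 27.6, 4.35 and 1.00 CPM in the HR1 tumours and did not pass either test. Without HR1_1 it was called higher in LM than in HR1 (log2 fold change 3.66, edgeR adjusted p = 0.000395). *Cav3* in HR1_2 was 0.304 times the mean of the other HR1 tumours but 4.33-fold above HR1_3, and no other gene of the list passed 2-fold against either. In LM9 versus LM1 none of the 12 was called when any 1 of the 6 LM tumours was left out, and 5 were called without HR1_3. In LM versus HR1, 4 were higher and 2 lower without HR1_1, and 3 and 1 without HR1_2.

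Among 14 cargo and lipid raft genes, 2 were higher and 4 lower in LM than in HR1. None was called higher when any 1 of the 6 LM tumours was left out, and 1 was without HR1_2. *Flot1* and *Flot2*, the flotillins, fell from 102 to 29.1 and 36.6 CPM (log2 fold change -1.65, edgeR adjusted p = 4.7e-05) and from 189.4 to 110.4 and 93.5 CPM (-0.90, 0.00058). *Insr*, the insulin receptor, was the gene that rose in LM9 versus LM1 (12.3 to 31.1 CPM, 1.33, 0.00811), and *Bmpr2* the one that fell (61.7 to 43.4 CPM, -0.51, 0.0247). In HR1_2, *Cd109* was at 8.65 CPM against 0.399 in HR1_1 and 1.29 CPM in HR1_3. *Cd59a* was 0.353 times the mean of the other HR1 tumours but 1.73-fold above HR1_3, and *Cd36* was 1.29-fold above that mean and 2.05-fold above HR1_3. From 2 calls in LM9 versus LM1, the count fell to 1 without LM1_1, LM1_2 or any LM9 tumour, and 4 genes were called without HR1_3.

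Of 24 focal adhesion genes around testin, 7 were higher and 9 lower in LM than in HR1, and 3 were lower and none higher in LM9 than in LM1. *Csrp1*, a LIM-domain protein gene, was at 108, 761 and 435 CPM in HR1_1, HR1_2 and HR1_3, at 60.1 CPM in LM1 and at 15.0 CPM in LM9. It fell in LM versus HR1 (log2 fold change -3.86, edgeR adjusted p = 0.00042, and -3.18 without HR1_2) and in LM9 versus LM1 (-2.0, 0.0343). *Pdlim1* rose from 34.8 CPM in HR1 to 69.5 in LM1 and 70.0 CPM in LM9 (1.00, 0.000428). In HR1_2, *Csrp1* and *Tln2* were at least 2-fold above the mean of the other HR1 tumours and *Fhl1* at least 2-fold below it, but they were 1.75, 1.61 and 0.846 times HR1_3. *Ablim1* was 0.400 times HR1_3 and 0.717 times that mean. Without HR1_2, 6 were higher and 5 lower in LM than in HR1. In LM9 versus LM1 none was called without LM9_3, 1 without LM9_1 or LM9_2 and 5 without HR1_3, and without HR1_1 the 10 called were 4 higher and 6 lower.

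Of 14 tested partners of MDFIC, 2 were higher and 3 lower in LM than in HR1, and 2 were higher and 2 lower in LM9 than in LM1. *Piezo1* rose from 115 CPM in HR1 to 240.4 in LM1 and 205 CPM in LM9 (log2 fold change 0.94, edgeR adjusted p = 0.00248). *Tcf7* fell from 209 to 166 and 83.9 CPM (-0.83, 0.000616) and *Lef1* from 31.0 to 8.59 CPM between LM1 and LM9 (-1.85, 0.0133). *Foxf1*, *Zic2* and *Lef1* in HR1_2 were at least 2-fold below the mean of the other HR1 tumours, but 0.631, 0.504 and 0.803 times HR1_3. Another 2 of the 14 were at least 2-fold above HR1_3 in HR1_2. Without HR1_1, 8 of the 14 were higher and 4 lower in LM than in HR1, and 3 in all were called without LM9_1. The higher calls in LM versus HR1 fell to 1 without LM1_2, LM9_1 or LM9_2. In LM9 versus LM1, 3 were called without LM1_1, LM9_1 or LM9_3, 2 of them higher.

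**Figure D4:**
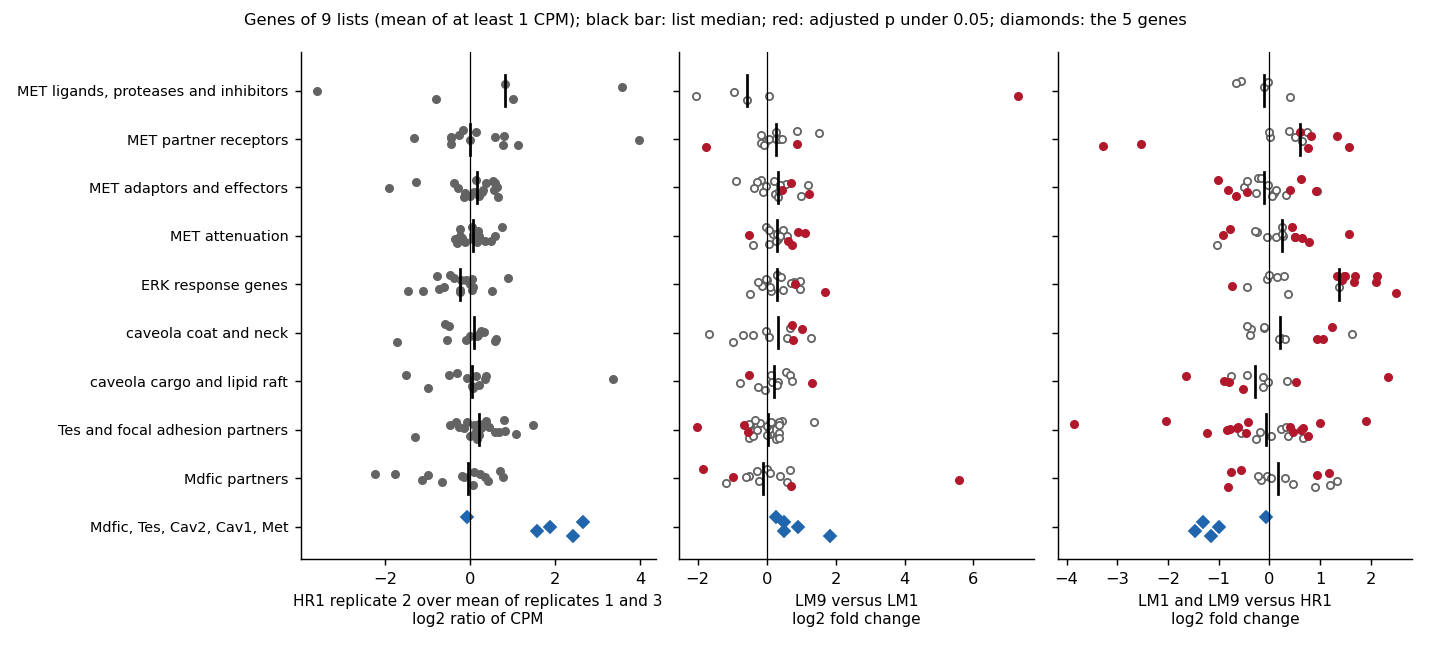
Log2 ratio of CPM in HR1_2 to the mean of HR1_1 and HR1_3 (left) and log2 fold changes of LM9 versus LM1 (middle) and of LM1 and LM9 versus HR1 (right) for the list genes whose mean reached 1 CPM; points are genes, red points have an edgeR adjusted p-value under 0.05, black bars are list medians over the genes drawn, and diamonds are the 5 genes, untested at left and right. In the left panel 4 diamonds lie between 1.57 and 2.67, while all 9 list medians lie closer to 0.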

How the data were processed

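RNA was measured in sorted GFP-positive cells of 9 tumours, which the labels assign to 3 models with 3 replicates each. According to the methods, the authors used STAR for alignment of stranded mRNA-seq reads to the mm10 genome and counted their 5′ ends over the exon union of each gene with qCount, and they deposited whole-number counts per gene without normalization. A strand setting for the counting is not given in the sources used here. Of 14108 Entrez numbers, 14085 were matched to RefSeq symbols and coordinates (GRCm38.p6), and exon lengths came from GENCODE. Promoter sequences are those of RefSeq.

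Counts of 14086 genes, those kept by filterByExpr of edgeR, were scaled by TMM (factors 0.928 to 1.05) and fitted with edgeR 4.0.16 in R 4.3.3 (robust quasi-likelihood F-test, 1 model of 3 groups, Benjamini-Hochberg adjustment over all tested genes, threshold 0.05). The unit being counts, limma-voom 3.58.1, which the study used, was an alternative, as was DESeq2 1.42.0. Permutation tests used scipy 1.17.1. The 5 genes and the lists were chosen with earlier results of these data known. Named genes were the 5, the tested neighbours within 2 Mb, the 5 most similar genes, and from each list up to 3 genes with the smallest p in each comparison and up to 3 past 2-fold in HR1_2. *Asz1*, *Cftr*, *Cttnbp2*, *Tspan12*, *Gm15473*, *Gm4876*, *Gab2*, *Epha2*, *Cd36*, *Dusp6*, *Etv5*, *Ablim1*, the ends of runs and markers given beside a result were named after their values were seen, and the ratios of list genes to HR1_3 alone were added then. Nothing says that replicates came from separate cultures, so p-values measure the spread between these tumours. The fits were checked on simulated data with known changes between LM9 and LM1 in 200 genes. There edgeR recovered 7.46%, 62.7% and 83.3% of log2 changes of 1, 2 and 4. False calls were 5.56% of those of edgeR and 28.8% of those of DESeq2. A log2 change of 1 was thus mostly missed, and a gene without a call may have changed. The limit of 3 counts covers counting error only and not PCR duplicates.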

Additional observations from a re-analysis of the deposited data

How the results depend on the processing

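The median log2 ratio of the 5 genes in HR1_2 to the other HR1 tumours was 1.87. It was 2.10 against the median of the other 8 tumours, and leaving replicate 3 or replicate 1 out of the reference gave 3.29 and 1.17. Over the 4 genes from *Tes* to *Met* it was 2.15, and over the 7 from *Tes* to *Wnt2* 2.16, both sets added after the data were seen. The count of genes called in LM9 versus LM1 was 3102, and 7709 with only the 6 LM tumours. Leaving out 1 tumour gave 1150 to 6413 for it, 8 to 67 for the list genes called, 4928 to 7902 genes called in LM versus HR1 and 52 to 93 list genes in that comparison. The 6-tumour fit called *Mdfic* (log2 fold change 0.26), *Tes* (0.49), *Cav2* (0.90), *Cav1* (0.50) and *Met* (1.82). Of the other alternatives, leaving out HR1 replicate 1 called *Cav2* (0.91) and *Met* (1.83), and no other called any of the 5. With 1 tumour left out, *Cav2* lay between 0.86 and 0.96 and *Met* between 1.78 and 1.92. Over all alternatives the log2 fold change of *Met* lay between 1.77 and 1.92 (edgeR, DESeq2 or limma adjusted p from 3.1e-07 to 0.330), and all 5 genes kept their direction. With the replicate number as a block, 2295 genes were called in LM9 versus LM1 and 5234 in LM versus HR1, and none of the 3 coat genes higher in LM9 than in LM1 was called higher, while 1 gene of that list was called lower. Same-numbered tumours did not visibly deviate together (correlations of -0.109 to 0.136 over 9 pairs, 1 of them over 0.1). Differently numbered tumours had correlations of -0.175 to 0.183, so these values cannot settle whether the numbers pair the tumours.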
